A study of Mus musculus with 6 samples.

Results

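Solute carriers were compared between lipid-droplet-rich and lipid-droplet-poor microglia, the resident macrophages of the brain. The set was selected on measured values: it holds every gene whose symbol starts with Slc and a digit and that reached a normalized count of 10 in 3 or more of the 6 libraries. Genes of the mitochondrial Slc25 family and 9 further symbols were left out by name. The deposited table listed 296 such symbols, 242 remained after these exclusions, and 190 reached the level, out of 12767 genes of the whole table that reached it. Because that level may be met in 1 gate alone, 11 of the 190 were under 10 in every BODIPY-low library and none was under 10 in every BODIPY-high library. The set had 151 genes at 10 or more in all 6 libraries. Just outside the level stood Slc6a12 and Slc6a13, with third-highest values of 9.87 and 9.48, and just inside it stood Slc35f2 and Slc23a1, with 10.01 and 10.12. Of the 190 symbols, 5 do not name carriers: Slc9a3r1 and Slc9a3r2 are scaffold proteins, Slc4a1ap and Slc7a6os are named after neighbouring or bound carriers, and Slc2a4rg-ps is a pseudogene. The other 185 were grouped by substrate into 35 amino acid, 17 sugar, 21 anion, 25 metal and 22 nucleotide sugar carriers, and 65 carriers of other substrates. Of the 22, 9 (Slc35e to Slc35g) have no assigned substrate and were placed there by family.

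Both groups were microglia from the hippocampus of male C57BL/6 mice, 3 months old, that had received 1 mg/kg lipopolysaccharide (LPS, a bacterial cell wall component) by intraperitoneal injection for 4 days, with tissue taken 24 h after the last dose. Each sample pooled the hippocampi of 2 mice, and about 10000 live CD11b+CD45lo cells were sorted. BODIPY, a dye that stains neutral lipid, divided them into a BODIPY-high gate (3 libraries) and a BODIPY-low gate (3 libraries). The saline arm of the study was not used here. Whether samples of a gate came from separate pools is not said in the labels, so the p-values describe the spread among these 6 samples, which may be technical. Same-numbered libraries varied together across the gates, and the main test did not use that pairing. It called 259 genes of the table higher and 3 lower at an adjusted p under 0.05. With the replicate number as a block, 558 were called higher and 59 lower. Recovered depth was 37633089 to 39220494 reads in BODIPY-high libraries and 34899413 to 36518323 reads in BODIPY-low libraries.

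Solute carriers are membrane proteins that move small molecules across the plasma membrane or the membranes of organelles, driven by the gradient of the substrate itself, by exchange, or by coupling to sodium, protons or chloride. Some exchangers of the Slc7 family reach the cell surface only when bound to the heavy chain Slc3a2. Nucleotide sugar carriers of the Slc35 family load the Golgi and the endoplasmic reticulum with the donors of glycosylation, and several Slc29, Slc46, Slc15 and Slc38 members act in the lysosome, an organelle that phagocytes such as microglia use heavily. In the brain, carriers are also strongly divided among cell types: astrocytes clear glutamate and GABA, and the choroid plexus epithelium moves bicarbonate and other ions into the cerebrospinal fluid.

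Promoter windows are shown for 3 carriers that were higher in BODIPY-high libraries and for the 2 of highest level per kb of exon, to set side by side the starts of genes near silence and of genes at high level. Each window runs 5′ to 3′ on the strand of the gene, spans 250 bases before to 50 bases after the RefSeq start (GRCm38.p6), and has its CG pairs in capitals. Windows lie at chr10:22644761-22645060 (plus strand) for Slc2a12, chr5:142701851-142702150 (plus strand) for Slc29a4, chr6:35308077-35308376 (minus strand) for Slc13a4, chr10:60752733-60753032 (minus strand) for Slc29a3 and chr14:54781837-54782136 (minus strand) for Slc7a8. The RefSeq start of Slc29a4 lies inside the gene as GENCODE M21 draws it.
Slc2a12: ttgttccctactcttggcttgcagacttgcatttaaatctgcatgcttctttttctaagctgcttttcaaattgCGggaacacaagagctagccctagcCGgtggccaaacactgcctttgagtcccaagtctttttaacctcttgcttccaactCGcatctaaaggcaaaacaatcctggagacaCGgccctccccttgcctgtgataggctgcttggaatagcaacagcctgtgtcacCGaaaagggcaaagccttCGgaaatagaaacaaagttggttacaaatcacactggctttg
Slc29a4: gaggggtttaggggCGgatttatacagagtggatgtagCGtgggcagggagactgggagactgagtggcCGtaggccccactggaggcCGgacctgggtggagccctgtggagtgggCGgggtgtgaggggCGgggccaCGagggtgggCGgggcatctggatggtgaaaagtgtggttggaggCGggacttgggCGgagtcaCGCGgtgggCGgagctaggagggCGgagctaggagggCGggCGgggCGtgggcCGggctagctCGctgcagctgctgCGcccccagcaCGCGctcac
Slc13a4: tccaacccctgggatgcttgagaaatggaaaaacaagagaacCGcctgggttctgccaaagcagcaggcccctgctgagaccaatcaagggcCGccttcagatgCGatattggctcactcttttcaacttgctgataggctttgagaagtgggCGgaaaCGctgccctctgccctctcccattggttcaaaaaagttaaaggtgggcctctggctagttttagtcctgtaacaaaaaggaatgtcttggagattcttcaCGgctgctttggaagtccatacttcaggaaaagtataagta
Slc29a3: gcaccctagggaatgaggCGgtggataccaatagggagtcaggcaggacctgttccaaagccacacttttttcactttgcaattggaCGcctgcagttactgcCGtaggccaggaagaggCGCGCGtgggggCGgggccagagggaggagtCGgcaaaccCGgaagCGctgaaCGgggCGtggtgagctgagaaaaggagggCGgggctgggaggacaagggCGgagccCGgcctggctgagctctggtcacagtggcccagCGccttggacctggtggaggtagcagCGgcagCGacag
Slc7a8: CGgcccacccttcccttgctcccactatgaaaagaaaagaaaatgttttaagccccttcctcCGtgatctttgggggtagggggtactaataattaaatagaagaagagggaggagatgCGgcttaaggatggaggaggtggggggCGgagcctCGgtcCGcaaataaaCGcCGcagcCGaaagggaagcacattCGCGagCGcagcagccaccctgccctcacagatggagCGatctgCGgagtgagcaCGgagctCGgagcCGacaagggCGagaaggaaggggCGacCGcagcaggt

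The window of Slc2a12 held 6 CG pairs at 47% G and C, that of Slc13a4 6 pairs at 48.7%, and that of Slc29a4 22 pairs at 70.0%. Among the abundant carriers, the window of Slc29a3 held 18 CG pairs at 64.3% and that of Slc7a8 20 pairs at 58.0%. The median over 12426 windows of tested genes was 20 pairs, with quartiles of 10 and 28, so the carriers shown lie on both sides of it. The motif GGGCGG (GC box, either strand) was found 9 times in the Slc29a4 window and in 61.3% of all windows. TATAAA, on either strand, was found once there, as TTTATA on the strand printed, and in 7.22% of all windows. CCAAT, on either strand, was found 3 times in the Slc13a4 window, 2 times in that of Slc29a3 and in 37.6% of all windows. A match is a description of the letters only. Windows were held for 143 of the 190 genes (75.3%), under the 80% needed, so a comparison of promoters over the whole set is void.

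Carriers that differed between the gates were scarce or near absent in BODIPY-low libraries and higher in BODIPY-high libraries, while the abundant carriers had similar levels in both. Of the 190 genes, 13 rose and 0 fell in BODIPY-high libraries at an adjusted p under 0.05 (limma, Benjamini-Hochberg over all 12767 genes). The 13 are 6.84% of the set, and the background over all genes tested was 2.03% higher and 0.0235% lower. Of the 13, 2 were among the 151 genes at 10 or more in all 6 libraries (1.32%) and 11 were among the other 39 (28.2%). Without adjustment, 33 members passed 0.05 with BODIPY-high on top (background 8.03%) and 5 with BODIPY-high below (background 2.27%). The count test of edgeR called 12 members higher and 0 lower, against a background of 1.74% higher and 0.00783% lower. DESeq2 called 19 members higher and 0 lower, against a background of 3.63% higher and 0.251% lower. The gates did not overlap in 32 members with BODIPY-high on top (16.8%, background 10.4%) and in 9 with BODIPY-high below (4.74%, background 5.95%). The median log2 change was 0.03 over the set and -0.0043 over all genes tested, and 139 members (73.2%) lay within 0.5 of 0, against 84.0% of all genes tested. Of the 13 that rose, 8 were among the 11 genes under 10 in every BODIPY-low library, which the level rule admits only where BODIPY-high is higher, so the count of 13 describes the selection as well as the gates.

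**Figure D1:**
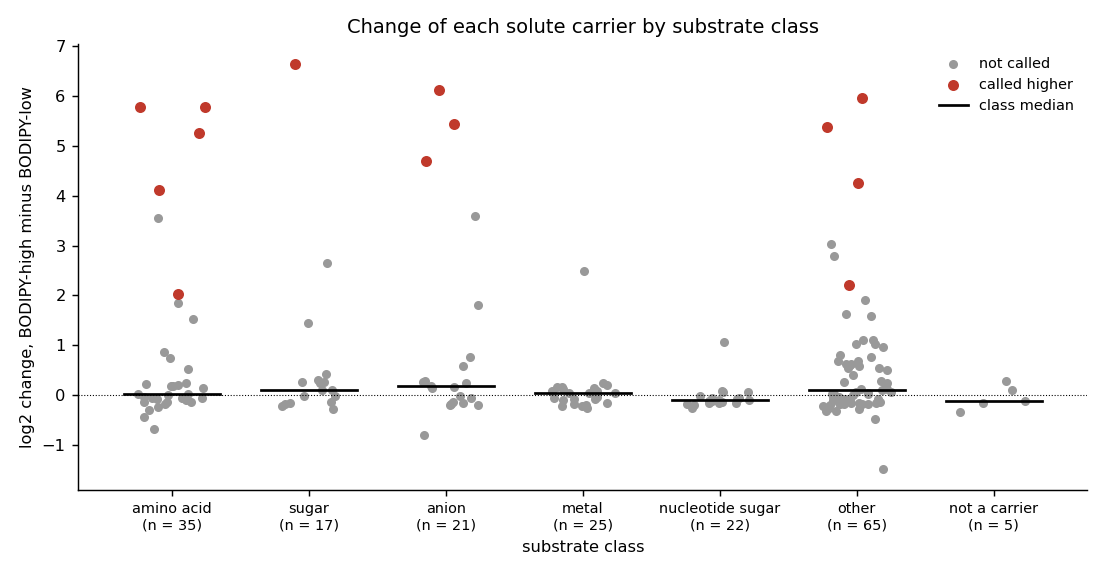
Log2 change of each of the 190 genes, BODIPY-high minus BODIPY-low on the log2(normalized count + 1) scale, by substrate class. Red points passed the limma test, grey points did not, and black bars are class medians, which all lie between -0.12 and 0.19 although single carriers reach 6.64.

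Transcripts that mark other cells also differed between the gates, and they are given here because several carriers that rose are known from those cells. All 6 choroid plexus markers (Ttr, Folr1, Kcnj13, Clic6, Enpp2 and Kl) were called higher, with summed normalized counts of 39463, 51759 and 51678 in BODIPY-high libraries 1, 2 and 3, against 306, 479 and 2287 in BODIPY-low libraries 1, 2 and 3. Astrocyte markers summed to 2141 to 3536 in BODIPY-high libraries and 210.4 to 344 in BODIPY-low libraries, and 4 of 7 tested were higher. Border-associated macrophage markers summed to 23099 to 86138 in BODIPY-high and 2623 to 7655 in BODIPY-low libraries, and 9 of 11 were higher. No marker of these 3 lists was at 0 in every BODIPY-low library. Microglia markers summed to 1676280 to 2300640 in BODIPY-high libraries and 2160800 to 2539560 in BODIPY-low libraries, and 0 of 8 were called in either direction. Endothelial markers summed to 1025 to 1619 in BODIPY-high and 1198 to 1985 in BODIPY-low libraries, and 0 of 8 were called. Oligodendrocyte markers summed to 8302 to 14606 in BODIPY-high and 7192 to 7312 in BODIPY-low libraries (2 of 7 higher). Of tested markers, 2 of 4 of oligodendrocyte precursors, 1 of 2 of meningeal fibroblasts and 1 of 1 of erythroid cells were called higher. Of neutrophil, monocyte and neuron markers, 0 of 5, 0 of 5 and 0 of 2 were called. The background over all genes tested was 2.03% higher and 0.0235% lower. Markers at 0 in every BODIPY-low library were Pdgfra of oligodendrocyte precursors, Col1a1, Col3a1 and Crabp2 of meningeal fibroblasts and Syt1 of neurons. The part of these other transcripts in the carrier results was not tested. In bulk samples, fewer cells of a type and less RNA per cell cannot be told apart.

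**Figure D2:**
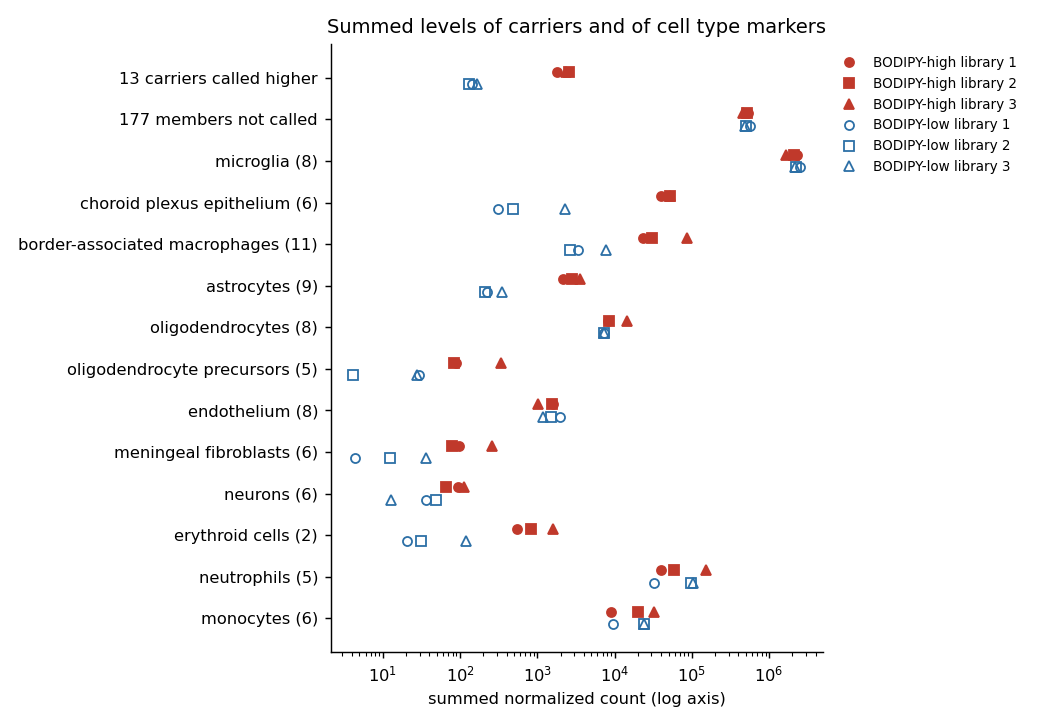
Summed normalized count (log axis) in each library of the 13 carriers called higher, of the 177 genes not called, and of each list of cell type markers with the number of its genes in the table. Filled red symbols are BODIPY-high and open blue symbols BODIPY-low libraries: the 13 carriers sum to 1789 to 2564 in BODIPY-high and 129.9 to 167 in BODIPY-low libraries, and the 177 others to 458818 to 532503 in BODIPY-high and 485333 to 557782 in BODIPY-low libraries.

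Among 35 amino acid carriers, 5 rose (14.3%) and 0 fell, against 2.03% higher and 0.0235% lower over all genes tested. Slc7a10, an exchanger of small neutral amino acids including D-serine (chr7:35186385-35201114, GRCm38), had normalized counts of 130.1, 182 and 188 in BODIPY-high libraries 1, 2 and 3, against 2.19, 1.03 and 3.16 in BODIPY-low libraries 1, 2 and 3. Every BODIPY-high library was far above every BODIPY-low one. The low gate was near the value of 3 reads (3.09 to 3.29 normalized counts in its libraries, which is also what a count of 0 allows). Its log2 change was 5.79 ± 0.51 (SE, adjusted p = 0.00266), and the means of 167 ± 31.8 and 2.13 ± 1.07 (SD, n = 3 each) stood 78.3-fold apart. It was the only carrier called whichever single library was left out. Slc7a10 shares 377 exon bases with Lrp3 on the opposite strand, which was at 6.01 to 7.98 in BODIPY-high and 0 to 11.6 in BODIPY-low libraries.

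Slc6a20a, a sodium-coupled carrier of proline, had 20.02, 94.7 and 55.2 normalized counts in BODIPY-high libraries, against 0, 1.03 and 0 in BODIPY-low libraries. BODIPY-high library 1 was lowest of its gate, and the gates did not overlap. Recovered reads were 175 and 1, a ratio of 160.4 after scaling for depth (95% counting interval 28.4 to 6370), with a log2 change of 5.25 ± 0.82 (adjusted p = 0.0168). The 1 read of the low gate was in BODIPY-low library 2, so no fold can be given without that library. Without BODIPY-high library 2 the fold of the means dropped to 109 against 165 with it, and the call was lost (adjusted p = 0.14), as it was without library 3 (0.0959). Its near copy Slc6a20b was at 0 to 6.98 in BODIPY-high libraries and at 0 in BODIPY-low libraries, so the split of reads between the copies is uncertain, and 563 exon bases are shared with Gm17120 on the opposite strand, which was not analysed here.

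Slc38a3, a sodium-coupled carrier of glutamine, was present in both gates, at 120.1, 288 and 233 normalized counts in BODIPY-high libraries and 51.6, 39.2 and 56.9 in BODIPY-low libraries. The lowest BODIPY-high library had over 2 times the level of the highest BODIPY-low one. Its log2 change was 2.02 ± 0.38 (adjusted p = 0.0334), and leaving out any 1 library other than BODIPY-high 1 lost the call (adjusted p up to 0.19). Slc6a15, a sodium-coupled carrier of branched-chain amino acids and proline, had 15.02, 21.9 and 12.9 in BODIPY-high libraries and 0 in each BODIPY-low library. That is 51 reads against 0, at least 15.6-fold higher when the low gate is set to a floor of 3 reads in all. Its adjusted p was 0.0452, and leaving out any single library lost the call (0.067 to 0.26), as did edgeR (0.0517), a pseudocount of 0.5 (0.0505) or a pseudocount of 5 (0.0617).

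A pair of further carriers known from astrocytes did not pass the limma test, and their counts were low. Slc1a2, the main glutamate carrier of astrocytes, had 37.0, 54.8 and 87.4 in BODIPY-high libraries, against 21.9, 22.7 and 6.32 in BODIPY-low libraries (log2 change 1.85 ± 0.60, adjusted p = 0.265). Slc6a11, the GABA carrier GAT3, had 18.0, 11.97 and 64.4 in BODIPY-high libraries, against 2.19, 2.06 and 0 in BODIPY-low libraries (3.56 ± 0.90, adjusted p = 0.11). DESeq2 called Slc6a11 higher (adjusted p = 0.0134) and did not call Slc1a2 (0.161). Both were higher in every BODIPY-high than in any BODIPY-low library, and both were chosen here after their values were seen. Slc1a3, the glutamate carrier GLAST, is also known from astrocytes and did not lean the same way. It was abundant in both gates, at 12437, 11041 and 9230.3 in BODIPY-high libraries and 11034, 11683 and 10582 in BODIPY-low libraries. Its gates overlapped, and its log2 change was -0.04 ± 0.12 (adjusted p = 0.965).

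The heavy chain Slc3a2 and its partners made up much of the amino acid class. Slc3a2 had 21027, 19035 and 18707 normalized counts in BODIPY-high libraries, against 21706, 22084 and 19167 in BODIPY-low libraries, with overlapping gates (log2 change -0.10 ± 0.10, adjusted p = 0.842). Slc7a8, the neutral amino acid exchanger LAT2, had 32762, 27629 and 25124 in BODIPY-high libraries, against 32359, 28337 and 28240 in BODIPY-low libraries, which also overlapped (-0.06 ± 0.12, adjusted p = 0.926). The further partners Slc7a5 (LAT1), Slc7a7 (a cationic and neutral exchanger) and Slc7a11 (the cystine and glutamate exchanger xCT) had log2 changes of -0.14, -0.06 and 0.25, with adjusted p of 0.851 to 0.949. Slc38a2, a sodium-coupled neutral amino acid carrier, and Slc38a10 of the same family had log2 changes of -0.13 and 0.19 and did not pass either, although the Slc38a10 values of 14849 to 15581 in BODIPY-high libraries all lay above the 13065 to 13886 of BODIPY-low libraries. Summed over the class, counts were 121092 ± 11540.1 in BODIPY-high and 122385 ± 9279 in BODIPY-low libraries (SD, n = 3 each), a ratio of 0.989.

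**Figure D3:**
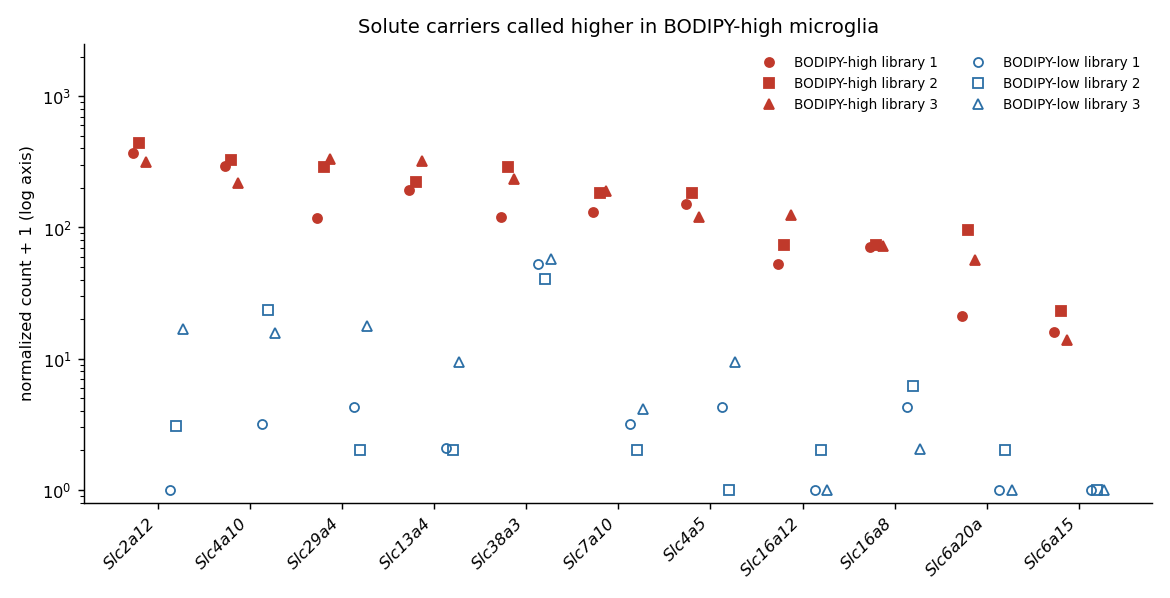
Normalized count plus 1 (log axis) of 11 of the 13 carriers called higher, in each library, ordered by their mean in BODIPY-high. Filled red symbols (left of each pair) are BODIPY-high and open blue symbols BODIPY-low libraries, and the gates do not overlap in any of the 11.

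Among 17 sugar carriers, 1 rose (5.88%) and 0 fell, against 2.03% higher and 0.0235% lower over all genes tested. Slc2a12, the facilitative glucose carrier GLUT12 (chr10:22645011-22704285; window printed above), had 368, 437 and 313 normalized counts in BODIPY-high libraries, against 0, 2.06 and 15.8 in BODIPY-low libraries. The 3 BODIPY-high libraries lay close together, and BODIPY-low library 3 held most of the reads of its gate. Its log2 change was 6.64 ± 0.89 (adjusted p = 0.0102), with means of 373 ± 62.1 and 5.95 ± 8.59 that stood 62.6-fold apart, or 361-fold without BODIPY-low library 3. Leaving out BODIPY-high library 2 lost the call (adjusted p = 0.0795). It shares 407 exon bases with Tbpl1 on the opposite strand, which had 1931 to 2685 in BODIPY-high and 2642 to 2674 in BODIPY-low libraries (log2 change -0.20, adjusted p = 0.704).

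Sugar carriers of higher level did not pass the test. Slc2a3, the glucose carrier GLUT3, had 780, 582 and 1325 in BODIPY-high libraries, against 498, 759 and 671 in BODIPY-low libraries, with overlapping gates (log2 change 0.42 ± 0.29, adjusted p = 0.729). The log2 change was 0.27 ± 0.27 for Slc2a6, a hexose carrier of lysosomes, and -0.15 ± 0.10 for Slc2a8, an intracellular hexose carrier. Slc37a2, a sugar phosphate carrier of the endoplasmic reticulum, had 10405 ± 1028.8 in BODIPY-high and 9631 ± 213.55 in BODIPY-low libraries (SD, n = 3 each; log2 change 0.11 ± 0.10). Slc50a1, a glucose carrier of the SWEET family, had 1855 to 2115 in BODIPY-high libraries, all below the 2213 to 2556 of BODIPY-low libraries, with a log2 change of -0.23 ± 0.11 (adjusted p = 0.53). Slc45a3 was scarce, with 31.0, 17.9 and 38.6 in BODIPY-high and 4.39, 0 and 16.8 in BODIPY-low libraries (2.66 ± 1.02, adjusted p = 0.383). Slc45a4 of the same family had a log2 change of -0.02 ± 0.12.

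Anion carriers included 3 of 21 that rose (14.3%), all of them scarce in BODIPY-low libraries, and 0 that fell. The background over all genes tested was 2.03% higher and 0.0235% lower. Slc13a4, a sodium-coupled sulfate carrier (chr6:35267957-35308131; window printed above), had 191, 221 and 320.0 normalized counts in BODIPY-high libraries, against 1.10, 1.03 and 8.42 in BODIPY-low libraries. Every BODIPY-high library stood far above the low gate, in which library 3 was highest. The log2 change was 6.13 ± 0.66 (adjusted p = 0.00469), with means 69.4-fold apart, or 229-fold without BODIPY-low library 3. Without BODIPY-high library 2 the adjusted p was 0.0566.

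Slc4a5 and Slc4a10 are sodium-coupled bicarbonate carriers known from the choroid plexus. Slc4a5 had 149, 180.5 and 119.6 in BODIPY-high libraries, against 3.29, 0 and 8.42 in BODIPY-low libraries, and its gates were far apart. Its log2 change was 5.44 ± 0.79 (adjusted p = 0.0141), with a fold of means of 38.3, which was 25.6 with BODIPY-low library 2 left out and 91.0 with BODIPY-low library 3 left out. Slc4a10 had 291, 328 and 218 in BODIPY-high libraries, against 2.19, 22.7 and 14.7 in BODIPY-low libraries. Here BODIPY-low library 1 was lowest, the gates did not overlap, and the log2 change was 4.70 ± 0.69 (adjusted p = 0.0141, fold of means 21.1, or 33.0 without BODIPY-low library 2). Both calls were lost without BODIPY-high library 2 (adjusted p = 0.104 each) or library 3 (0.0566 for Slc4a5 and 0.0536 for Slc4a10). Summed choroid plexus markers ran from 39463 to 51759 in BODIPY-high libraries and from 306 to 2287 in BODIPY-low libraries, and their part in these results was not tested.

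Slc4a1, the anion exchanger of red cells, had 99.1, 11.97 and 143 in BODIPY-high libraries, against 4.39, 0 and 19.0 in BODIPY-low libraries. BODIPY-high library 2 was low and lay below BODIPY-low library 3, so the gates overlapped, and the log2 change of 3.59 ± 1.22 did not pass (adjusted p = 0.295). With the replicate number as a block it passed (adjusted p = 0.00757), against a background with the block of 4.37% higher and 0.462% lower over all genes tested. The 2 erythroid markers in the table summed to 541, 839 and 1615 in BODIPY-high libraries and 20.8, 30.9 and 120.0 in BODIPY-low libraries. The cation and chloride carriers Slc12a2 (NKCC1), also known from the choroid plexus, and Slc12a9 had log2 changes of -0.02 and -0.21 and did not pass. Slc12a9 nevertheless had 11092 to 12335 in BODIPY-high libraries, all below the 12496 to 13972 of BODIPY-low libraries (adjusted p = 0.48).

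Among 65 carriers of other substrates, 4 rose (6.15%) and 0 fell, against 2.03% higher and 0.0235% lower over all genes tested. Slc16a12, a carrier of creatine in the monocarboxylate family (chr19:34668403-34747289), had 52.1, 72.8 and 123 in BODIPY-high libraries, against 0, 1.03 and 0 in BODIPY-low libraries. The gates were far apart, with 259 reads against 1, a ratio of 237 (42.2 to 9410). Its log2 change was 5.96 ± 0.69 (adjusted p = 0.00541), the fold of means was 241, or 160.4 without BODIPY-low library 1 or 3, with no fold to give without BODIPY-low library 2, which held the 1 read of its gate, and the call was lost without BODIPY-high library 2 (0.0646). Slc16a8, a lactate carrier of the same family, had 70.1, 72.8 and 70.8 in BODIPY-high libraries, against 3.29, 5.16 and 1.05 in BODIPY-low libraries. Of the 13 it varied least in the high gate, and its log2 change was 4.25 ± 0.60 (adjusted p = 0.0132, fold of means 22.5).

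Slc29a4, the monoamine carrier PMAT (chr5:142692512-142722490; window printed above), had 117, 290.2 and 331 in BODIPY-high libraries, against 3.29, 1.03 and 16.8 in BODIPY-low libraries. BODIPY-high library 1 and BODIPY-low library 2 were the lowest of their gates, and the log2 change was 5.39 ± 0.80 (adjusted p = 0.0143, fold of means 34.9, or 114 without BODIPY-low library 3). Slc16a8 and Slc29a4 each lost their call without BODIPY-high library 2 (adjusted p = 0.104 each) and without library 3 (0.063 and 0.0689).

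With the replicate number as a block, 16 members were higher (8.42%) and 1 was lower, the 13 above being among them. The 4 added, chosen for naming after their values were seen, were Slc4a1 and 3 carriers of other substrates. Slc15a2, a peptide carrier, had 249, 310.1 and 882 in BODIPY-high libraries, against 151, 92.8 and 162 in BODIPY-low libraries (adjusted p = 0.163, or 0.012 with the block). Slc14a1, a urea carrier, had 491, 665 and 1421 in BODIPY-high libraries, against 428, 316 and 405 in BODIPY-low libraries (0.292, or 0.0475 with the block). In both, BODIPY-high library 3 was highest and the gates did not overlap. Slc8a1, a sodium and calcium exchanger, was the 1 lower, with 1996, 1548 and 1339.9 in BODIPY-high libraries, against 2753, 2352 and 1699 in BODIPY-low libraries. Its gates overlapped, it was lower in BODIPY-high within each numbered pair, and its log2 change was -0.47 ± 0.20 (adjusted p = 0.464, or 0.0206 with the block).

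The remaining named carriers of other substrates were abundant and did not pass. Slc9a9, a sodium and proton exchanger of endosomes, had 14354, 14692 and 15942 in BODIPY-high libraries, against 14436, 13457 and 13606 in BODIPY-low libraries (log2 change 0.12 ± 0.09). Slc44a1 and Slc44a2 are choline carriers whose gates stood apart in opposite directions, without either passing. Slc44a1 had 2427 to 2709 in BODIPY-high libraries, above the 1975 to 2294 of BODIPY-low libraries (0.28 ± 0.10, adjusted p = 0.358), and Slc44a2 had 12698 to 14819 in BODIPY-high libraries, below the 15278 to 16162 of BODIPY-low libraries (-0.15 ± 0.09, adjusted p = 0.688). Slc46a1, a proton-coupled folate carrier, Slc16a1, the lactate carrier MCT1, and Slc15a3, a lysosomal carrier of histidine and peptides, had log2 changes of -0.17, -0.18 and -0.18, with adjusted p of 0.794 to 0.896.

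None of 25 metal carriers passed the test in either direction, against 2.03% higher and 0.0235% lower over all genes tested. At that background, 0 calls do not set a class of this size apart. Of the 25, 24 lay within 0.5 log2 units of 0, against 84.0% of all genes tested. At an unadjusted p under 0.05, 2 were higher (background 8.03%) and 1 lower (background 2.27%). Slc11a2, the iron carrier DMT1, had 3810, 4159 and 3999 in BODIPY-high libraries, against 3451, 3284 and 3363 in BODIPY-low libraries. The gates did not overlap, but the log2 change of 0.24 ± 0.09 did not pass (adjusted p = 0.325). Slc31a1, the copper importer, and Slc31a2 of its family had log2 changes of 0.16 and 0.04. The zinc carriers Slc30a1 (export), Slc39a1 (import) and Slc39a7 (release from the endoplasmic reticulum) had log2 changes of 0.05, -0.22 and -0.08. Of the magnesium carriers, Slc41a3 had 1473 to 1561 in BODIPY-high libraries, below the 1731 to 2024 of BODIPY-low libraries (-0.27 ± 0.11, adjusted p = 0.419), and Slc41a2 was scarce, with 10.01, 35.9 and 53.3 in BODIPY-high and 8.78, 0 and 11.6 in BODIPY-low libraries (2.50 ± 1.07, adjusted p = 0.469). Summed counts of the class were 67110 ± 3662.7 in BODIPY-high and 66825 ± 3469.5 in BODIPY-low libraries (SD, n = 3 each).

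None of 22 carriers of the nucleotide sugar class passed, against a background of 2.03% higher and 0.0235% lower, so 0 calls do not set this class apart. The class holds 13 members of Slc35a to Slc35d and 9 of Slc35e to Slc35g, whose substrate is not assigned here. At an unadjusted p under 0.05 there was 1 higher, among the 9, and 0 lower (background 8.03% and 2.27%). The log2 change was above 0 in 4 of 22 (18.2%), against 49.2% of all genes tested and 44.8% of those with a mean of at least 1000. Of these 4, 2 were among the 9 of unassigned substrate. The median of the class was -0.10. Its sign rests on BODIPY-high library 3, since it came to 0.017 with that library left out, and it came to -0.014 with BODIPY-low library 1 left out. Summed counts were 72895 ± 8324 in BODIPY-high and 76941 ± 4533 in BODIPY-low libraries (SD, n = 3 each), a difference smaller than the spread between libraries. Slc35b2, which carries the sulfate donor PAPS into the Golgi, had 13156, 15574 and 11230 in BODIPY-high libraries, against 15336, 15926 and 13690 in BODIPY-low libraries. Its gates overlapped (log2 change -0.18 ± 0.13, adjusted p = 0.74). Slc35a1 (CMP-sialic acid), Slc35a2 (UDP-galactose), Slc35c2 and Slc35e1 had log2 changes of -0.16, -0.19, -0.10 and -0.06. Slc35g1, of unassigned substrate here, had a positive log2 change, with 302, 427 and 332 in BODIPY-high libraries, against 227, 99.0 and 208 in BODIPY-low libraries, and did not pass (1.06 ± 0.33, adjusted p = 0.231).

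Levels per kb of exon placed lysosomal and exchanger carriers on top. Slc29a3, a nucleoside carrier of lysosomes, was highest, at 7081 ± 1048 normalized counts per kb in BODIPY-high and 8269 ± 1242 in BODIPY-low libraries (SD, n = 3 each). Its gates overlapped, and its log2 change was -0.22 ± 0.15 (adjusted p = 0.704). Next came Slc7a8, at 5695 ± 778 per kb in BODIPY-high and 5923 ± 470 in BODIPY-low libraries, and Slc3a2, at 5551 ± 356 in BODIPY-high and 5947 ± 449 in BODIPY-low libraries. Slc7a8 and Slc3a2 did not differ beyond their spread. The mean of Slc29a3 was above both in each gate, but in BODIPY-high libraries its spread (1 SD) overlapped that of Slc7a8. Slc46a3, Slc35b2, Slc46a1 and Slc39a7 followed, with means from 3445 to 4567 per kb in BODIPY-high and 3634 to 4826 in BODIPY-low libraries. By class, the 20 highest held 4 amino acid, 1 sugar, 1 anion, 3 metal, 4 nucleotide sugar and 7 other carriers, and no called carrier ranked above 127 of 190.

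**Figure D4:**
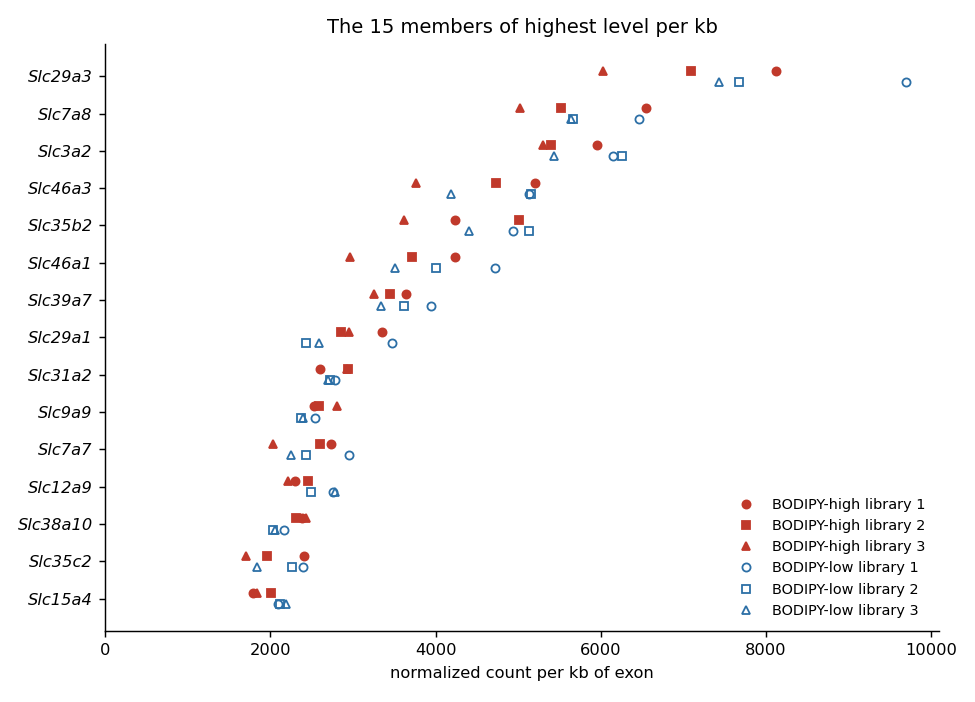
Normalized count per kb of exon in each library for the 15 genes of highest level per kb. Filled red symbols (upper of each pair) are BODIPY-high and open blue symbols BODIPY-low libraries, and Slc29a3 leads at 7081 per kb in BODIPY-high and 8269 per kb in BODIPY-low libraries on average.

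Called carriers lay at low levels, and calls over all genes tested were also more frequent there. Of 92 carrier symbols with a mean of at least 1000 over all 6 libraries, 0 were called, against 0.529% of all 5297 genes at that level. At that share, 0 calls do not set these carriers apart. Of the 92, 91 lay within 0.5 log2 units of 0 and the median change was -0.06. Of the 5297 genes, 98.3% lay within 0.5 and their median was -0.02. Between 100 and 1000, 6 of 49 were called (12.2%), against 1.79% of 4761 genes at that level. Under 100, 7 of 49 were called (14.3%), against 5.50% of 2709 genes. All members together made up 1.28 to 1.42% of the counts of a BODIPY-high library and 1.30 to 1.46% of a BODIPY-low library. The 13 that rose were 0.335 to 0.517% of member counts in BODIPY-high libraries and 0.0254 to 0.0345% in BODIPY-low libraries.

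**Figure D5:**
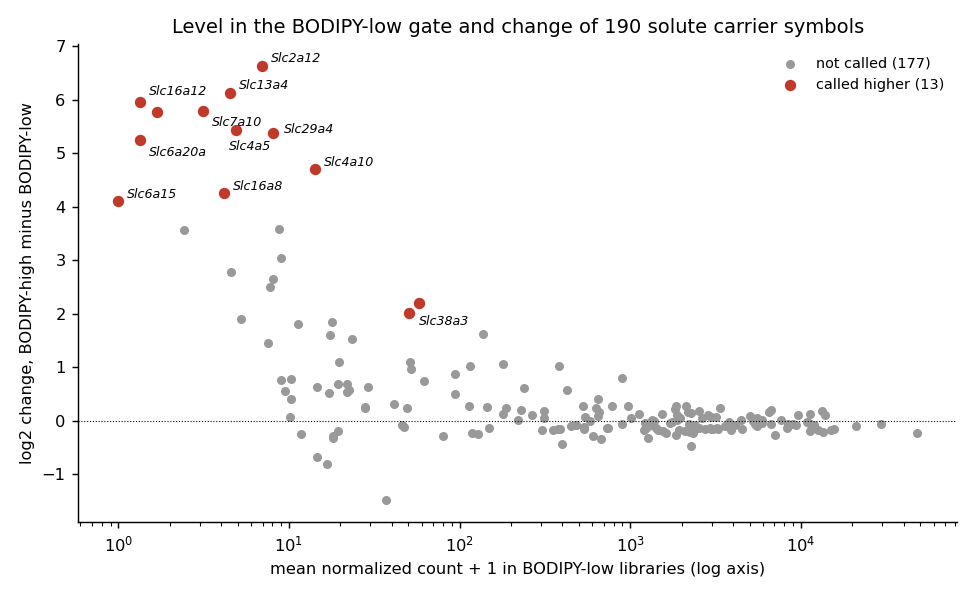
Mean normalized count plus 1 in BODIPY-low libraries (log axis) against log2 change, BODIPY-high minus BODIPY-low, for the 190 genes. The 13 called higher (red, 11 of them named) lie at low levels, 11 at a BODIPY-low mean of at most 13.2 and Slc38a3 at 49.2. The x axis is part of the change on the y axis, so the slope is no result.

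Within the 13, the BODIPY-high libraries did not vary alike. Library 2 was highest for 8 and library 3 for 5, while library 1 was highest for 0 and lowest for 9. Each of the 13 was higher in BODIPY-high in all 3 numbered pairs, which follows under any numbering because the gates did not overlap in any of the 13. Leaving out BODIPY-high library 2 lost 12 of the 13 calls, and 15 genes of the whole table were then called higher, against 259 with all libraries. Without BODIPY-high library 3, 9 calls were lost and 59 genes of the table were called higher, whereas leaving out BODIPY-high library 1 lost 1 and each BODIPY-low library 2. A library kit that does not keep strand was used, and 54 members share exon bases with another gene (46 with one on the opposite strand), so reads from the shared bases cannot be told apart from those of the partner. Whether the deposited counts include or leave out such reads was not tested, and levels per kb used the full exon length. Among named carriers long stretches were shared by Slc39a7 (2084 bases with Gm20427) on the same strand and by Slc15a3 (1541 with Tmem132a) on the opposite strand.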

How the data were processed

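Total RNA of sorted microglia was sequenced from 6 libraries, 3 per gate. Per the series' design text, reads were checked with FastQC 0.11.4, aligned to mm10 with STAR 2.5.3a, counted per gene with STAR and tested with DESeq2. The submitters' processing notes name mm9 as well as mm10. The deposited signal is a normalized gene count: the authors scaled each library's counts by its size factor (0.911 to 1.09). Every value was a whole multiple of 1 step within 0.05 of a read (100% in each library), which recovered whole reads. In BODIPY-high libraries 1 and 2 that step is close to 1.

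The main test was limma-trend 3.58.1 (R 4.3.3), fitting gate alone to log2(normalized count + 1), with two-sided p, over 12767 genes at 10 or more in at least 3 libraries, with Benjamini-Hochberg adjustment. Folds on this scale can understate or overstate the change of scarce genes. Against edgeR, the log2 change was smaller for Slc16a12 (5.96 against 7.42) and larger for Slc2a12 (6.64 against 5.92). edgeR 4.0.16 and DESeq2 1.42.0 on recovered reads, other pseudocounts (0.5 and 5), other minimums (none, or 50), a replicate block and each library left out were alternatives. Libraries of a gate differed beyond sampling noise (chi-square per degree of freedom 30.8 to 119.8), so each counted as 1 sample. Deviations of same-numbered libraries from their gate mean correlated at 0.354, 0.244 and 0.363 across 12767 genes, other pairs at -0.255 to -0.0951. Because the deviations are centred within each gate, negative values of the other pairs follow in part from the centring. Same-numbered libraries thus varied together, and the labels do not say what the numbers mark. The main test did not use this pairing, and the replicate block did.

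Named genes were all called members, the 3 of smallest p and the 3 of largest mean in each substrate class, and 24 carriers named in any case, some of them counted already. Members, classes, marker lists and named genes were chosen with earlier results of these data known. Gene positions and exon lengths came from GENCODE M21, and promoter windows from RefSeq. Means carry the SD and log2 changes the SE. Counting intervals (95%, exact) and floors of 3 reads cover counting error only, since PCR copies without molecular identifiers are not independent molecules. Results of some single genes that the naming rule selects are not reported here.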

Additional observations from a re-analysis of the deposited data

How the results depend on the processing

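The count of members called higher (13) ran from 1 to 12 with 1 library left out. Amino acid carriers called higher (5) ran from 1 to 4, anion carriers (3) from 0 to 3, other carriers (4) from 0 to 4 and sugar carriers (1) from 0 to 1. The count over all genes ran from 15 to 271 higher (259) and 0 to 2 lower (3). With a minimum of 50 in 3 libraries, 131 genes were higher and 1 lower, 3 amino acid carriers were higher, and the median log2 change was -0.018 over the members, -0.014 for sugar and 0.010 for other carriers. Of the genes that the naming rule selects, Slc6a15, Slc6a20a, Slc41a2 and Slc45a3 then leave the test. DESeq2 gave 464 higher and 32 lower, with 8 other carriers higher, and edgeR 1 gene lower. The replicate block gave 558 higher and 59 lower, with 1 member lower, a carrier of the other class; it changed no other call than those printed in the report.

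Median log2 changes with 1 library left out ran from -0.010 to 0.088 over the members, -0.018 to 0.19 for amino acid, 0.014 to 0.17 for sugar, 0.11 to 0.24 for anion, -0.045 to 0.072 for metal, -0.14 to 0.017 for nucleotide sugar and 0.045 to 0.15 for other carriers. The cause of these moves was not tested beyond the smaller number of samples or genes. Of 672 comparisons of named genes, 641 kept their side of the threshold and 31 lost a call. The sign turned in 19 of the 641, all in carriers that were not called, and in no called carrier. Class sums without the called members, an alternative added after seeing the data, moved by less than the spread between libraries in each class.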
